A study of Homo sapiens with 3 samples.

Results

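The genes described here are 45 genes of DNA double-strand break repair and of the Fanconi anaemia pathway. They were listed by name, without a threshold on array values, but with earlier results of these data known. All probes carrying one of these gene symbols were taken. Of the 45 genes, 41 had a named probe (72 probes in all), out of 47309 probes on the arrays, and BRCA2, RBBP8, FANCA and FANCD2 were not analysed here. The study searched for PARP1 target genes in H2030-BrM3, a line derived from the human lung adenocarcinoma line H2030 and selected for growth as brain metastases. 1 array held RNA of H2030-BrM3 cells with PARP1 targeting shRNA-1 (hairpin 1), 1 held RNA of cells with PARP1 targeting shRNA-2 (hairpin 2), and 1 held RNA of cells with a non-targeting shRNA (control). All of the cells were the same line, grown for 1 day in RPMI 1640 with 10% serum, so each hairpin culture is a single population of a cancer line. The labels name no separate cultures or RNA preparations, so a p-value here measures only how far these arrays spread, and that spread may be technical. It comes from the gap between different hairpins, so it also holds any difference in what the hairpins did. Each RNA came from many cells, so fewer cells with a transcript and less of it per cell cannot be told apart.

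Cells repair double-strand breaks mainly by homologous recombination, which copies the intact sister chromatid, or by non-homologous end joining, which rejoins the ends directly. The Fanconi proteins unhook crosslinks between DNA strands at stalled replication forks and hand the resulting break to recombination. PARP1 binds nicked and broken DNA and makes poly(ADP-ribose), which draws repair proteins to the site. Cells that lack homologous recombination are known to be sensitive to PARP inhibitors, and alternative end joining by polymerase theta is known to depend on PARP1.

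The arrays were of similar depth, with 34.6% to 36.8% of probes above background, which here means a detection p under 0.01. With only 3 arrays, precision is limited by their number throughout. Values below are normalized log2 intensities or differences between them unless called raw, and a log2 ratio is a hairpin minus the control. PARP1 checked the labels: its log2 intensity was 10.29 with hairpin 1 and 9.15 with hairpin 2, against 12.11 in the control, which left 28.2% and 12.9% of the control level. Its mean log2 change was −2.39 ± 0.36 (moderated SE, n = 2 against 1), yet its limma adjusted p over all 10692 genes tested was 0.734. In limma 0 genes passed an adjusted p of 0.05, and 376 (3.52%) had an unadjusted p under 0.05. Of 10 lung epithelial markers, EPCAM, KRT8, KRT18 and MUC1 were above background on all 3 arrays, while CDH1, KRT7, KRT19, NKX2-1, NAPSA and SFTPB were on none. Of the markers of other cell types, COL1A1, COL3A1 and CD68 were above background on all 3 arrays and LYZ on 2, and the 3 endothelial and 4 brain markers were on none.

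At these levels of PARP1 transcript, no repair gene differed 1.5-fold from the control with both hairpins. Of the 41 genes with a probe, 34 had a probe above background on at least 1 array and were tested, and the probe used was detected on every array for 32 of the 34, where this held for 90.7% of all genes. RAD50, RAD52, BRIP1, FANCF, FANCM, XRCC4 and NHEJ1 had no probe above background on any array. The count past 1.5-fold was 0 of 34 higher, where 0.365% of all genes were, and 0 of 34 lower, where 0.608% were. Many of those genes were dim: of the 9697 genes above background on all 3 arrays, 9 were past it higher and 12 lower. At such shares a count of 0 does not set the repair genes apart. In limma 0 of the 34 passed the adjusted p of 0.05, where 0% of all genes did, and 0 had an unadjusted p under 0.05. The limma adjusted p of the 34 lay between 0.994 and 0.999.

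The 95% intervals of limma show what these arrays could and could not see. The interval of the mean change lay wholly within 1.5-fold in either direction for 30 of the 34 genes, and it did so for 67.7% of all genes tested. Among genes above background on all 3 arrays, it did so for 30 of 32 repair genes and 74.6% of all genes. The exceptions among the 34 were LIG4, ATR, RAD51B and FANCC, whose raw intensities ran from 166.6 (LIG4, control) to 281.0 (FANCC, hairpin 2), where the array medians were 152.2 to 161.7. The median half-width of the interval was 0.31 on the log2 scale over the repair genes and 0.34 over all genes. Each interval rests on 1 residual degree of freedom, the gap between the hairpins, with variance borrowed across genes, and it assumes that the lone control array varies like the hairpin arrays.

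**Figure D1:**
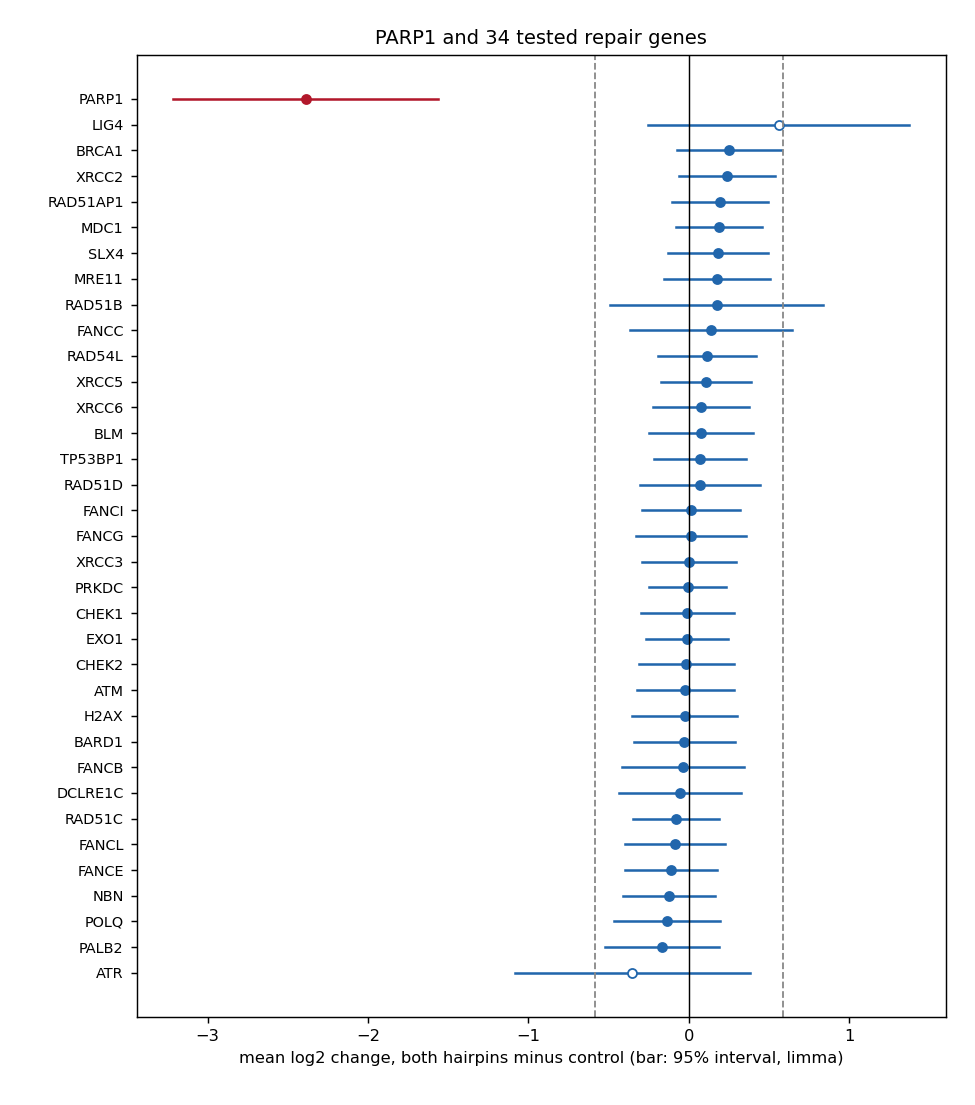
Mean log2 change of PARP1 (red) and of the 34 tested repair genes (blue), both hairpins minus control, on the x axis. Bars are 95% intervals from limma, open points were above background on 2 arrays only, and dashed lines mark 1.5-fold. PARP1 lies at −2.39 and the repair genes lie between −0.35 and 0.56.

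The repair genes lay on both sides of the control. Both ratios of a gene use the same control array, so their signs are not independent. Of the 34, 12 were above the control with both hairpins (33.8% of all genes were), 8 were below it with both (31.4%) and 14 had opposite signs. The 8 include ATM and FANCL, each level with the control on 1 hairpin array (log2 ratios of −0.00058 for ATM with hairpin 1 and −0.0012 for FANCL with hairpin 2). Their median log2 ratio was 0.03 with hairpin 1 and 0.05 with hairpin 2, against 0.0082 and 0.0020 over all genes. When arrays were scaled to a common median instead of quantile-normalized, 20 were above the control with both hairpins and 2 below it, while the median mean change moved to 0.069 for the repair genes and 0.065 for all genes. Among the 32 genes above background on all 3 arrays, 11 were above the control with both hairpins, 7 were below and 14 were opposite. The spread of the mean changes (SD) was 0.11 over these 32 genes and 0.17 over all genes above background on all 3 arrays.

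**Figure D2:**
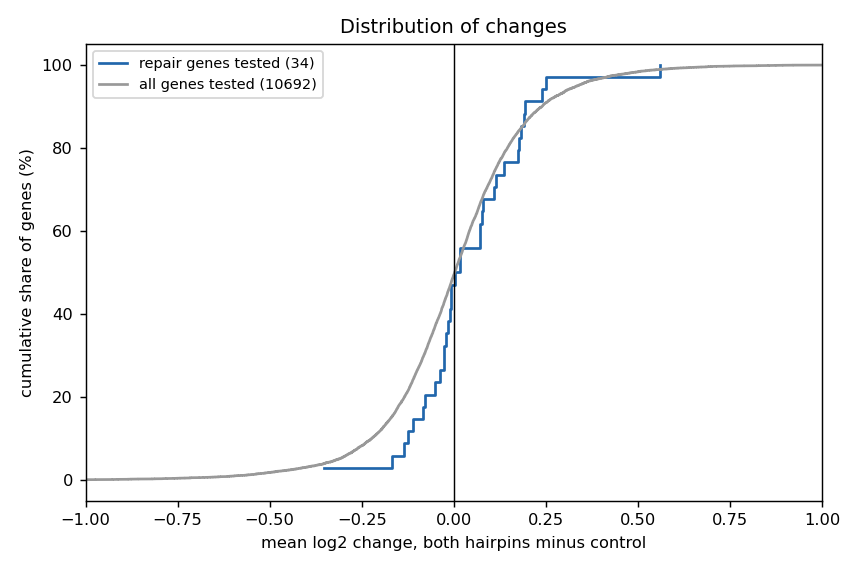
Cumulative share of genes (y axis, percent) by mean log2 change, both hairpins minus control (x axis), for the 34 repair genes tested (blue) and all 10692 genes tested (grey). The curves cross 50% near 0, at medians of 0.0087 and 0.0020, and the axis is limited to changes between −1 and 1.

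Break sensing and signalling genes, 9 tested, gave 3 above the control with both hairpins (33.8% of all genes were), 3 below (31.4%) and 3 opposite. MDC1, the adaptor that binds phosphorylated histone H2AX beside a break, had log2 intensities of 10.79 with hairpin 1 and 10.74 with hairpin 2, against 10.57 in the control. MRE11, the nuclease of the complex that first binds broken ends, had 8.24 and 8.25 with hairpins 1 and 2, against 8.07 in the control. In both genes the hairpin arrays lay above the control array, by a mean log2 change of 0.19 ± 0.12 for MDC1 and 0.18 ± 0.14 for MRE11 (SE, n = 2 against 1). TP53BP1, which shields ends from resection, had log2 ratios of 0.09 and 0.06.

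NBN, the partner of MRE11 that recruits ATM, lay on the other side. Its log2 intensity was 10.62 with hairpin 1 and 10.78 with hairpin 2, against 10.82 in the control, a mean change of −0.12 ± 0.13. The apical kinase ATM had 9.09 and 9.05 with hairpins 1 and 2, against 9.09 in the control, so hairpin 1 and the control were level. Its sister kinase ATR, which responds to single-stranded DNA at stalled forks, had 5.55 and 5.60, against 5.92 in the control. Both hairpin arrays lay below the control, but the ATR probe was not above background with hairpin 1, and its mean change of −0.35 ± 0.32 had an interval from −1.09 to 0.38. With the fold threshold lowered to 25% above 1, ATR was by its measured values the 1 repair gene past it below the control with both hairpins (2.51% of all genes were), and 0 were past it above the control (2.79% were). The lowest log2 value of a detected probe was 5.74 on the hairpin 1 array, above the measured ATR value there, so the call rests on signal under the detection threshold and no fold is given. The checkpoint kinases CHEK1 (log2 ratios of −0.08 and 0.06) and CHEK2 (0.05 and −0.09), which act below ATR and ATM, and H2AX itself (0.08 and −0.13) had hairpins on opposite sides of the control.

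Homologous recombination genes, 10 tested, gave 5 above the control with both hairpins (33.8% of all genes were), 2 below (31.4%) and 3 opposite. Their median log2 ratios were 0.07 for hairpin 1 and 0.11 for hairpin 2. BRCA1, which promotes resection and brings in the recombination machinery, had log2 intensities of 8.43 with hairpin 1 and 8.48 with hairpin 2, against 8.21 in the control. XRCC2, which is needed for homologous recombination, had 9.29 and 9.25, against 9.03 in the control. These genes had the largest changes of the repair genes above background on all 3 arrays, 0.25 ± 0.14 (interval −0.07 to 0.57) for BRCA1 and 0.24 ± 0.13 (−0.06 to 0.54) for XRCC2. As linear folds they were 1.19 and 1.18, and neither passed limma's test (adjusted p = 0.994 for each).

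RAD51AP1, which stimulates strand invasion, had 10.08 with hairpin 1 and 10.22 with hairpin 2, against 9.96 in the control. RAD54L, a DNA-dependent motor protein of recombination, had log2 ratios of 0.06 and 0.17, and RAD51B had 0.09 and 0.26 from a dim probe. On the other side, PALB2, the bridge between BRCA1 and BRCA2, had 7.87 and 7.75 with hairpins 1 and 2, against 7.98 in the control, a mean change of −0.17 ± 0.16. RAD51C had 10.70 and 10.71, against 10.78 in the control. The recombination genes thus did not lie on 1 side of the control. BARD1, the obligate partner of BRCA1, had log2 ratios of 0.05 and −0.11, and XRCC3 had −0.05 and 0.06. RAD51D had 0.16 and −0.02, but another of its probes above background on all 3 arrays gave 0.19 and 0.20.

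**Figure D3:**
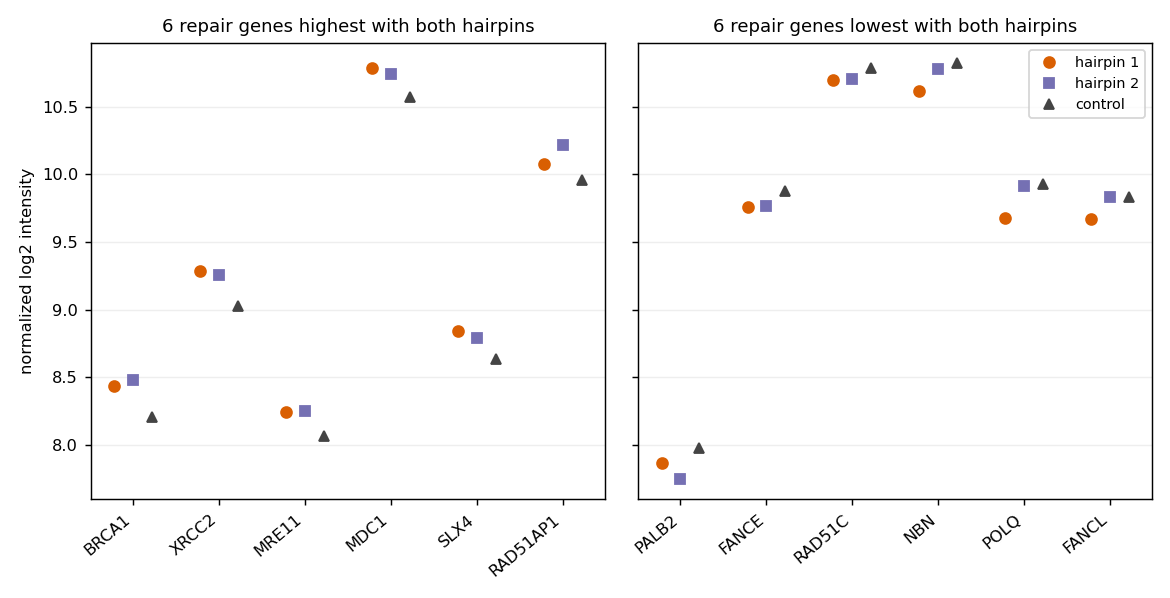
Normalized log2 intensity (y axis) on the hairpin 1, hairpin 2 and control arrays, 1 point an array, for the 6 repair genes highest (left) and the 6 lowest (right) with both hairpins among those above background on all 3 arrays. The control lies 0.12 to 0.23 below the nearer hairpin on the left and at most 0.11 above it on the right.

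Resection and helicase genes gave small values. EXO1, a nuclease of long-range resection, had log2 ratios of −0.08 and 0.06, and BLM, the helicase that also dissolves joint molecules, had 0.13 and 0.02. Of the Fanconi core complex, the ubiquitin ligase that marks crosslinked DNA, 5 genes were tested. With both hairpins, 0 lay above the control (33.8% of all genes did), 2 lay below (31.4%) and 3 were opposite. FANCE had 9.76 with hairpin 1 and 9.77 with hairpin 2, against 9.88 in the control. FANCL, the catalytic subunit of the ligase, had 9.67 and 9.83, against 9.84 in the control, so hairpin 2 and the control were level to within 0.0012. FANCB had log2 ratios of 0.0081 and −0.08. Of the genes that act after the ligase, FANCI, 1 of the proteins it ubiquitinates, had −0.08 and 0.11, and the nuclease scaffold SLX4 had 0.21 and 0.16 (log2 intensities of 8.84 and 8.79, against 8.63 in the control).

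Among non-homologous end joining genes, 2 of 5 lay above the control with both hairpins and 0 below, where 33.8% and 31.4% of all genes did. The other 3 had opposite signs. XRCC5 and XRCC6 encode the Ku proteins that cap broken ends. XRCC5 had log2 intensities of 10.71 with hairpin 1 and 10.84 with hairpin 2, against 10.66 in the control. XRCC6 had raw intensities of 4921 and 4571, against 4214 in the control, and after normalization its log2 ratios were 0.22 and −0.06, so only hairpin 1 lay above the control. PRKDC, the kinase that Ku recruits, had 11.79 and 11.75, against 11.78 in the control, and its interval, from −0.25 to 0.23, was the narrowest of the 34. Other PRKDC probes above background on all 3 arrays gave log2 ratios of 0.40, 0.35 and 0.11 with hairpin 2. With hairpin 1 they gave 0.0042, 0.08 and −0.16. The end-processing nuclease DCLRE1C had log2 ratios of −0.14 and 0.04. Another DCLRE1C probe above background on all 3 arrays, dim at raw intensities of 181.1 to 196.2, gave −0.32 and −0.34.

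LIG4, the ligase that seals the ends, had the highest mean change of the 34. Its probe had 6.23 with hairpin 1 and 5.66 with hairpin 2, against 5.38 in the control, where it was not above background. It was therefore tested only because of its hairpin signals, and its difference is a bound. The mean of the hairpins was at least 1.24-fold above the control, taken at the dimmest detected signal there, a log2 of 5.63. Hairpin 2 alone, at 5.66, lay close to that level. The interval of the measured mean change ran from −0.25 to 1.37. Of the other LIG4 probes, 1 was above background with hairpin 2 only and gave no bound above 1, and the remaining probe was above background on no array. POLQ, the polymerase of the alternative pathway, had 9.68 with hairpin 1 and 9.91 with hairpin 2, against 9.93 in the control, a mean change of −0.14 ± 0.14 with log2 ratios of −0.25 for hairpin 1 and −0.02 for hairpin 2.

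**Figure D4:**
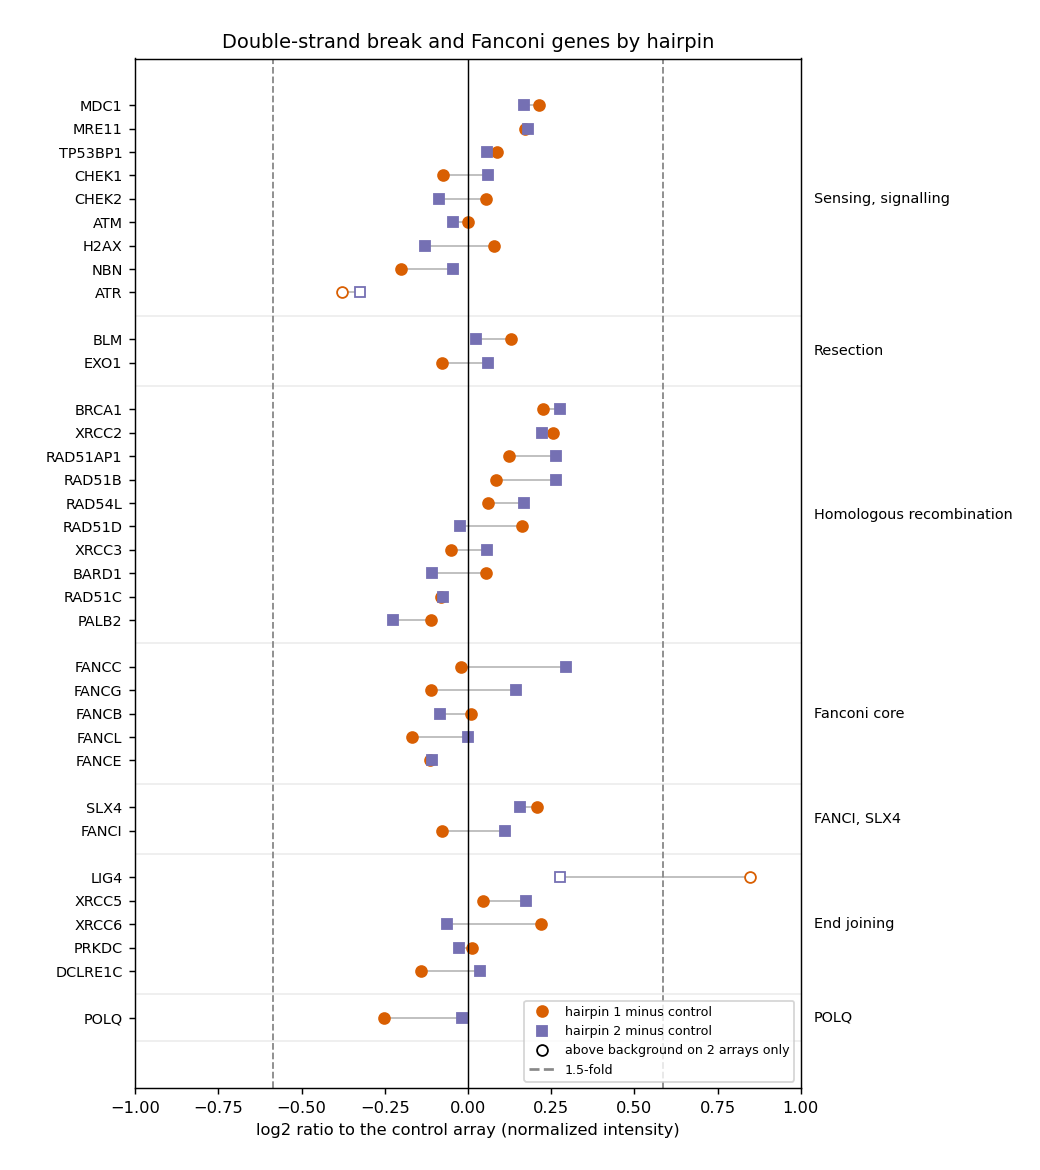
Log2 ratio of hairpin 1 (orange circles) and hairpin 2 (purple squares) to the control array (x axis) for the 34 tested repair genes, ordered by role and by mean change. Open symbols mark LIG4 and ATR, above background on 2 arrays only, and dashed lines mark 1.5-fold. LIG4 with hairpin 1, at 0.85, is the only symbol beyond a dashed line.

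The hairpins left different amounts of PARP1 transcript, and the repair genes were also compared between them, without a test since neither hairpin had a replicate. No repair gene was 1.5-fold apart (0 of 34), where 3.53% of all genes were. Of the 9697 genes above background on all 3 arrays, only 147 were. The value was higher with hairpin 2 than with hairpin 1 in 19 of 34, where 49.5% of all genes were. The next ranking is by the probe used, among genes above background on all 3 arrays. Those furthest toward hairpin 2 were FANCC (hairpin 2 minus hairpin 1, 0.32), FANCG (0.26) and POLQ (0.23). Those furthest toward hairpin 1 were XRCC6 (−0.28), H2AX (−0.21) and RAD51D (−0.19). Other probes of XRCC6 and RAD51D, above background on all 3 arrays, gave gaps of only 0.0026 and 0.0072, so the distance between the hairpins was not seen with those probes. Some probes not used, also above background on all 3 arrays, lay far apart. PRKDC probes gave 0.39, 0.27 and 0.26, against −0.04 by the probe used, and a FANCB probe gave 0.31. Toward hairpin 1, CHEK2 probe ILMN_2395240 gave −0.42, BRCA1 probe ILMN_2311089 −0.32 and a dim MRE11 probe −0.58. FANCC, a core complex subunit, had log2 intensities of 6.74 with hairpin 1 and 7.06 with hairpin 2, against 6.76 in the control. FANCG had 9.27 and 9.52, against 9.38 in the control. Values that stepped up in the order of PARP1 loss had the control lowest and hairpin 2 highest. They were counted in 6 of 34 (BRCA1, RAD51B, RAD54L, RAD51AP1, XRCC5 and MRE11), where 18.2% of all genes did so. In MRE11 hairpin 2 lay only 0.0099 above hairpin 1, and the other MRE11 probes did not step up. BRCA1 probe ILMN_2311089 did not step up either, with log2 ratios of 0.39 for hairpin 1 and 0.07 for hairpin 2. Values that stepped down were counted in 2 of 34, PALB2 and ATM, where 16.6% of all genes did so, and in ATM the step between the control and hairpin 1 was only −0.00058.

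The 7 genes without a probe above background had 1 named probe each, and no fold is given for them. RAD50, the ATPase that holds ends together with MRE11, had raw intensities of 136.8 with hairpin 1 and 156.1 with hairpin 2, against 137.3 in the control. RAD52, a recombination mediator, had 147.8 and 163.2, against 142.7 in the control. BRIP1, a helicase that binds BRCA1, had 154.0 and 163.6, against 159.6 in the control. None of these probes was above background on any array. The core complex subunit FANCF had 145.4 and 169.0, against 150.6 in the control, and the translocase FANCM had 132.1 and 140.3, against 146.4 in the control. The LIG4 partner XRCC4 had 149.6 and 165.7, against 162.8 in the control, and the end-joining factor NHEJ1 had 154.1 and 156.8, against 143.2 in the control.

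How far a gene's value depends on its probe was visible in 12 repair genes with several probes above background on all 3 arrays. Probes of the same gene gave mean changes that differed in sign in 6 of these genes, and the median gap between the highest and lowest probe was 0.11. MRE11 had the widest gap, 0.46: the probe used gave 0.18, and the others gave −0.26 and −0.28. Those probes were dim, with raw intensities of 186.3 to 196.1 and 178.1 to 190.7. EXO1 probe ILMN_2351916, with raw intensities of 1110 and 1299 with hairpins 1 and 2 against 1346 in the control, gave log2 ratios of −0.31 and −0.29, whereas the probe used for the gene gave −0.08 and 0.06. The remaining EXO1 probe, ILMN_1719089, was dim, was not above background in the control and lay the other way. Its raw intensities were 184.8 and 206.6 with hairpins 1 and 2, against 167.6 in the control. It was above background only through its hairpin signals, so its direction was partly fixed by that choice and its difference is a bound. The mean of its hairpin values was at least 1.31-fold above the control, taken at the dimmest detected signal there. BRCA1 was the closest pair, with mean changes of 0.25 and 0.23, although its probe ILMN_2311089 gave 0.39 with hairpin 1 and 0.07 with hairpin 2. The 4 PRKDC probes gave mean changes from −0.02 to 0.22, the 2 XRCC6 probes 0.08 and −0.0032, the 2 NBN probes −0.12 and 0.11, the 2 ATM probes −0.02 and 0.08, and the 2 FANCB probes −0.04 and 0.02. A dim XRCC2 probe, not above background with hairpin 1, gave −0.25 and −0.17, opposite in sign to the probe used. The 3 RAD51C probes all had negative mean changes, from −0.08 to −0.03.

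**Figure D5:**
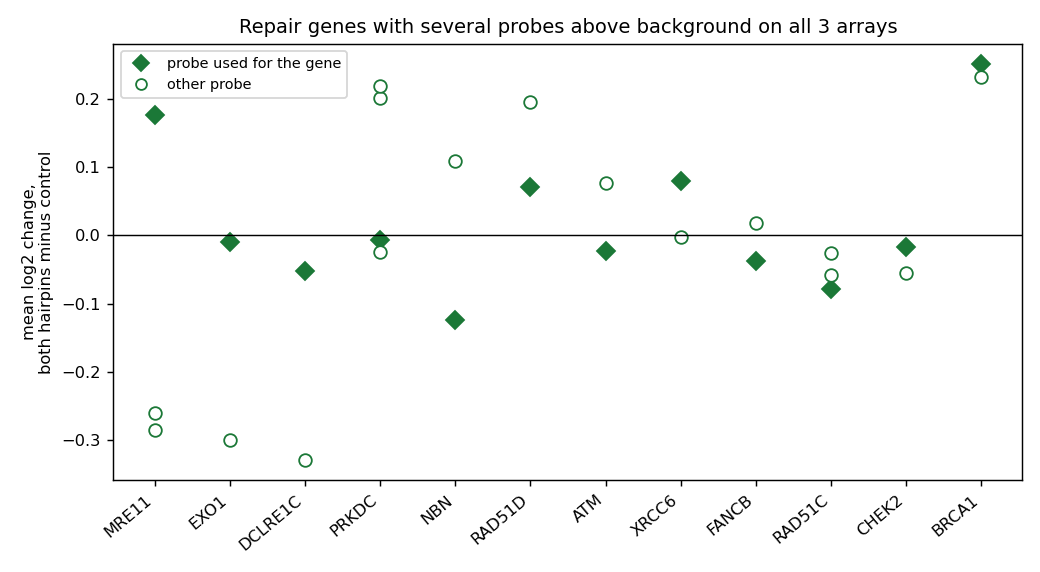
Mean log2 change, both hairpins minus control (y axis), of every probe above background on all 3 arrays, for the 12 repair genes with several such probes, ordered by the gap between probes. Filled diamonds are the probes used for the gene and open circles the others. MRE11, EXO1 and DCLRE1C have probes about 0.3 to 0.5 apart, and BRCA1 and CHEK2 probes lie close together.

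The promoters of these genes were read from RefSeq (GRCh38.p14), which held 41 of the 45, over the 250 bases before the annotated start. Median GC content was 63.6% for them and 64.8% for the 8688 tested genes with a promoter. An ETS factor word, CCGGAAGT on either strand, was in 7 of 41 (17.1%), namely MRE11, RAD50, BRCA2, PALB2, FANCD2, LIG4 and POLQ, against 7.57% of the promoters of tested genes and 3.64% of all 27305 promoters. An E2F word (TTTCCCGC, TTTCGCGC, TTTGCCGC or TTTGGCGC, either strand) was in 2 of 41 (4.88%), against 4.68% of the promoters of tested genes. A CHR word (TTTGAA or TTCGAA) was in 14.6% against 10.0%, a CCAAT box in 43.9% against 35.9%, and the palindromic word of NRF1 in 0 against 2.08%. The 41 promoters include genes not tested on the arrays, among them RAD50, BRCA2 and FANCD2. Their GC content and shares are therefore not over the same kind of set as those of tested genes. Of the 2 genes with an E2F word, FANCC was tested and FANCA was not. The words were chosen with the arrays' values known, and the overlap between words was not removed. A match is a description of letters and not of binding. Stretches of 4 promoters are shown with the ETS word in capitals. By the probe used, MRE11 and LIG4 lay above the control with both hairpins, POLQ lay below it with both, and RAD50 was not above background. These directions are weak: LIG4 was not above background in the control, and other MRE11 probes gave mean changes of −0.26 and −0.28. POLQ had a log2 ratio of only −0.02 with hairpin 2. Over all 7 genes with the word, 4 were tested. With both hairpins 2 lay above the control and 2 below, where 33.8% and 31.4% of all genes did. Whether the word bears on a gene's direction was not tested. In MRE11 and LIG4 the word is on the opposite strand and reads ACTTCCGG.
MRE11 (chr11:94493970-94494027, minus strand): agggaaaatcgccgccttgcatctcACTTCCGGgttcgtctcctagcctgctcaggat
RAD50 (chr5:132556797-132556918, plus strand): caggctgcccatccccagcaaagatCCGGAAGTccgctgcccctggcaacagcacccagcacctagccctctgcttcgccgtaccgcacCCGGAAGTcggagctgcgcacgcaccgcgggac
LIG4 (chr13:108218460-108218517, minus strand): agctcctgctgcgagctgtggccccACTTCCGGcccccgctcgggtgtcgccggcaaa
POLQ (chr3:121546065-121546122, minus strand): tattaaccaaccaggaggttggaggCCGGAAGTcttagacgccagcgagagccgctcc

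Of 62 further double-strand break and Fanconi genes, 55 were tested, 27 lay above the control with both hairpins and 14 below, and in limma 0 passed the adjusted p of 0.05 in either direction, with 2 at an unadjusted p under 0.05. Thus 49.1% of this list lay above with both hairpins and 25.5% below, where 33.8% and 31.4% of all genes did. The 27 include HUS1 and RNF168, each above background on 1 hairpin array alone. They were tested only because of that hairpin signal, so their place above the control is no independent result. Of all genes, 3.52% had an unadjusted limma p under 0.05. The genes named next are highest and lowest by the smaller of their ratios. They were taken among genes above background on all 3 arrays with the same sign for both hairpins. MMS22L, which with TONSL protects stalled forks, had 7.78 with hairpin 1 and 7.84 with hairpin 2, against 7.28 in the control, a mean change of 0.53 ± 0.16 (limma adjusted p = 0.994). The end-joining polymerase POLM had log2 ratios of 0.30 and 0.25 and the core complex partner FAAP100 had 0.28 and 0.21. MAD2L2, a shieldin subunit that limits resection, had 11.95 and 11.80 with hairpins 1 and 2, against 12.17 in the control, a mean change of −0.30 ± 0.11 (limma adjusted p = 0.994). TIPIN, of the fork protection complex, had −0.18 and −0.19, and the BRCA1-A complex deubiquitinase BRCC3 −0.16 and −0.39. ERCC4, the nuclease partner of SLX4, was the 1 gene of this list whose measured values were past the 1.5-fold rule, below the control, but it was above background in the control alone. Its log2 intensity there was 5.70, under the 5.74 of the dimmest detected probe on the hairpin 1 array, so no fold is given.

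Lists that report on damage signalling and on cycling cells were set beside the repair genes, since many repair genes peak in S phase. Of 16 p53 target genes, 11 were tested, and 4 lay above the control with both hairpins (33.8% of all genes did) and 6 below (31.4%). In limma 0 passed the adjusted p of 0.05, and 0 had an unadjusted p under 0.05, where 3.52% of all genes did. SESN1 had log2 ratios of 0.38 and 0.31, BBC3 of 0.48 and 0.16, FAS of −0.67 and −0.29 and CDKN1A, the p53-induced inhibitor of cyclin-dependent kinases, of −0.30 and −0.19. Of 26 S phase and E2F genes, 24 were tested, and 10 lay above with both hairpins (33.8% of all genes did) and 4 below (31.4%). The 10 include GINS1, above background on the hairpin 1 array alone and tested only because of that signal. In limma 0 of the 24 passed the adjusted test, and 1 (POLE2) had an unadjusted p under 0.05, where 3.52% of all genes did. The median log2 ratios of the 24 were 0.05 with hairpin 1 and 0.01 with hairpin 2, where those of the repair genes were 0.03 and 0.05. POLE2, a subunit of a replicative polymerase, had 0.36 and 0.29, and RRM2, a subunit of ribonucleotide reductase, −0.51 and −0.09. Of 15 mitosis genes, all tested, 6 lay above with both hairpins (33.8% of all genes did) and 7 below (31.4%). In limma 0 of the 15 passed, also at an unadjusted p under 0.05, where 3.52% of all genes did. The part of cell cycle phase in the repair genes' values was not tested.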

How the data were processed

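The 3 arrays were Illumina HumanHT-12 V4 BeadChips, and GenomeStudio is the tool the submitters' processing notes name for the deposited signals. The deposited table used here holds 1 intensity per probe on a linear scale, not background-subtracted, as the values show. It also holds a detection p-value per probe, per the file headers, in steps of 1 in 770. The other deposited table holds intensity values that the authors equalised between arrays (largest gap between sorted columns 0.706, median 152.6). It was used as an alternative. Its linear scale was inferred from ranks equal to those of the first table, and its centring beyond that equalisation is unknown. No source used here gives the authors' genome build.

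Background was corrected and arrays quantile-normalized as in neqc of limma 3.58.1 (R 4.3.3, offset 16, log2 scale). Probes were named from the platform annotation: 30106 had 1 gene symbol, and 8 with several were not named. A gene was tested if any of its probes had a detection p under 0.01 on 1 array or more, and its brightest such probe was used. Hairpins were compared with the control in limma (lmFit, eBayes with trend), adjusted by Benjamini-Hochberg over 10692 genes at 0.05, with a median of 7.30 prior degrees of freedom and a median SE of 0.147. The fit was tested on simulated data. All 45 genes were accounted for. Named with values were the 6 highest and 6 lowest by the smaller ratio, the 3 furthest apart each way between hairpins, the 4 brightest, those with probes of differing sign or none above background, PARP1, and up to 3 each way of other lists. ERCC4, LIG4, ATR and the remaining tested members were also named, with their values seen. The members and lists were chosen with earlier results of these data known. Alternatives were other background corrections, scalings, filters, probe rules, priors and thresholds, and leaving out each hairpin.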

Additional observations from a re-analysis of the deposited data

How the results depend on the processing

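No repair gene passed limma's adjusted p of 0.05 under any of the 8 other fits, and none was 1.5-fold from the control with both hairpins or 1.5-fold apart between them. With the fold threshold lowered to 25% above 1, 1 gene (ATR, lower by measured values, with hairpin 1 not above background, so no fold is given) was past the rule with both hairpins and 1 (LIG4) was apart between them. With 1 hairpin left out, a value with no test, 0 to 1 repair genes were past 1.5-fold (the 1 being LIG4 with hairpin 1), against 333 to 379 of all genes. The number of all genes past 1.5-fold with both hairpins, 104, was 11 with an offset of 50, 2 without background correction, 2 on the deposited normalized values, 21 with genes above background on all 3 arrays, 158 without a filter, 9 at 2-fold and 566 at the lowered threshold. All genes passing limma numbered 3 with median scaling, 1 when a gene's probes were averaged and 376 at an unadjusted p under 0.05. The median change of the repair genes was 0.069 with median scaling and 0.029 to 0.046 without 1 hairpin. PARP1 passed limma with median scaling (log2 change −2.33, adjusted p = 4.65e-27) and when a gene's probes were averaged (−2.39, 0.00725), and was −2.95 to −1.82 without 1 hairpin. With median scaling the prior degrees of freedom were not finite, so variance shared across genes replaced each gene's own. That adjusted p therefore does not measure the spread of PARP1 between the hairpins. With probes averaged the prior degrees of freedom were 13.3, against 7.30 in the main fit. Of the 21 repair genes named by the rule, 10 turned sign in some setting, 6 with all 3 arrays and 8 without 1 hairpin. When a gene's probes were averaged, MRE11 (−0.12), PRKDC (0.097), EXO1 (0.097) and ATM (0.027) turned because other probes of the gene entered the mean. Scaling to a common median gave H2AX 0.054, PRKDC 0.062, EXO1 0.050, ATM 0.061 and FANCB 0.046, but it moved the median of all genes to 0.065, against 0.0020, so genes just below 0 turned with the shift. Without 1 hairpin the value is the other hairpin's ratio, which turned in genes with opposite signs. These values were −0.063 to 0.22 for XRCC6, −0.13 to 0.077 for H2AX, −0.023 to 0.16 for RAD51D, −0.11 to 0.14 for FANCG, −0.021 to 0.30 for FANCC, −0.026 to 0.012 for PRKDC, −0.078 to 0.060 for EXO1 and −0.084 to 0.0081 for FANCB. No paired analysis was possible because the control has 1 array. Over the fits, the intervals of 21 to 34 repair genes lay within 1.5-fold.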
